A study of Mus musculus with 6 samples.

Results

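Cytochrome P450 genes of mouse skin were compared between mice carrying the LynDN transgene and wild-type (WT) mice. The set holds 65 genes of the 18617 named genes on the array. They were taken by name, as every gene symbol that begins with Cyp, a family number, a subfamily letter and a member number, so that Cyp3a41a, Cyp4a12a and Cyp4f41-ps with their suffixes are in, with Cyp26b1 and Cyp4f39 left out and Cyp51 outside the pattern. A total of 66 probes measure them, with 2 probes for Cyp3a41a and 1 for each other gene, and 2 of the genes, Cyp2d13 and Cyp4f41-ps, are annotated as transcribed pseudogenes. The naming rule itself uses no measured value.

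Skin RNA of 3 LynDN transgenic and 3 WT mice was hybridised to 2-colour oligonucleotide arrays. The kinase Lyn belongs to the Src family, and LynDeltaN, the name in the series title, denotes Lyn without its N-terminal end; the labels give neither the promoter of the transgene nor the strain, age or sex of the mice. Each LynDN mouse was paired with 1 WT mouse and the pair was measured on 2 arrays with the dyes exchanged: LynDN mouse 1 with WT mouse 1 (pair 1), LynDN mouse 2 with WT mouse 3 (pair 2), and LynDN mouse 3 with WT mouse 2 (pair 3). Values are log2 ratios between the genotypes on one array. The mean of the 2 arrays is the pair value, so n = 3, or 2 where a pair is left out.

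Which genotype is the numerator of the ratios is not stated, and signs are printed as in the deposited table. Both dye orientations carry the same sign for strong differences. The alarmin gene S100a9 had 5.33, 4.64 and 5.05 on the arrays of pairs 1, 2 and 3 with LynDN in Cy3, and 5.97, 6.06 and 6.16 on those with LynDN in Cy5. Inflamed skin resembling psoriasis is known from such mice, and this gene is high in psoriasis; on that basis alone LynDN would be the likely numerator. Positive and negative mark opposite genotypes and no more than that. Ratios carry no level, so a ratio near 0 does not show whether a gene was expressed in skin. The tissue label can be read against its markers only where ratios are large, as for keratinocyte genes at the end.

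P450 enzymes are haem proteins that insert oxygen into lipids, steroids, vitamins and foreign compounds. Most sit in the endoplasmic reticulum and take electrons from the reductase Por, while a few mitochondrial ones use ferredoxin. Families are numbered by sequence: the first families are best known for foreign compounds, the next for fatty acids, and the higher ones for sterols, steroid hormones, vitamin D and retinoic acid. In epidermis they are known for making and removing lipid mediators and for handling chemicals that reach the skin.

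Of the 65 genes, 0 passed the test at an adjusted p of 0.05 (limma on the 3 pair values, Benjamini-Hochberg adjustment over 22879 rows), where 0.0175% of all rows passed. The smallest adjusted p among them was 0.237. In whole skin, fewer cells of a type and less RNA per cell cannot be told apart. At an unadjusted p under 0.05 there were 12 P450 genes, or 18.5%, against 12.3% of all rows. Of these, 7 were positive, against 5.92% of all rows, and 5 negative, against 6.41%. A mean ratio of at least 1 on the log2 scale, a 2-fold difference, was reached by 2 P450 genes, which is 3.08% of the set, against 0.599% of all rows. These were Cyp7b1 on the positive side, where 0.52% of all rows lie, and Cyp2f2 on the negative side, where 0.0787% do. At a mean of at least 0.5 there were 4, with Cyp3a13 and Cyp17a1 added, against 2.23% of all rows (1.54% positive and 0.686% negative). A fit that keeps the 6 arrays apart, with the dye as a term and pairs as a random block, called 3 P450 genes, Cyp7b1 positive and Cyp2f2 and Cyp17a1 negative, where it called 1.06% of all rows (0.603% positive and 0.459% negative). That fit gives every row the same correlation of 0.151 between the arrays of a pair, so for genes that vary mostly between pairs it counts dye swaps nearly as separate mice.

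Most of the set lay close to 0. The mean ratios ran from -1.03 to 1.16 with a median of 0.02, and the median over all rows was -0.01. Of the 65 genes, 51 lay within 0.15 of 0 on the log2 scale, or 78.5%, against 81% of all rows, and 45 were positive and 20 negative, or 69.2% positive against 43.9% of all rows. The median over the set was 0.02, 0.02 and 0.06 in pairs 1, 2 and 3. The median SD over pairs was 0.13 for P450 genes and 0.10 for all rows.

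**Figure D1:**
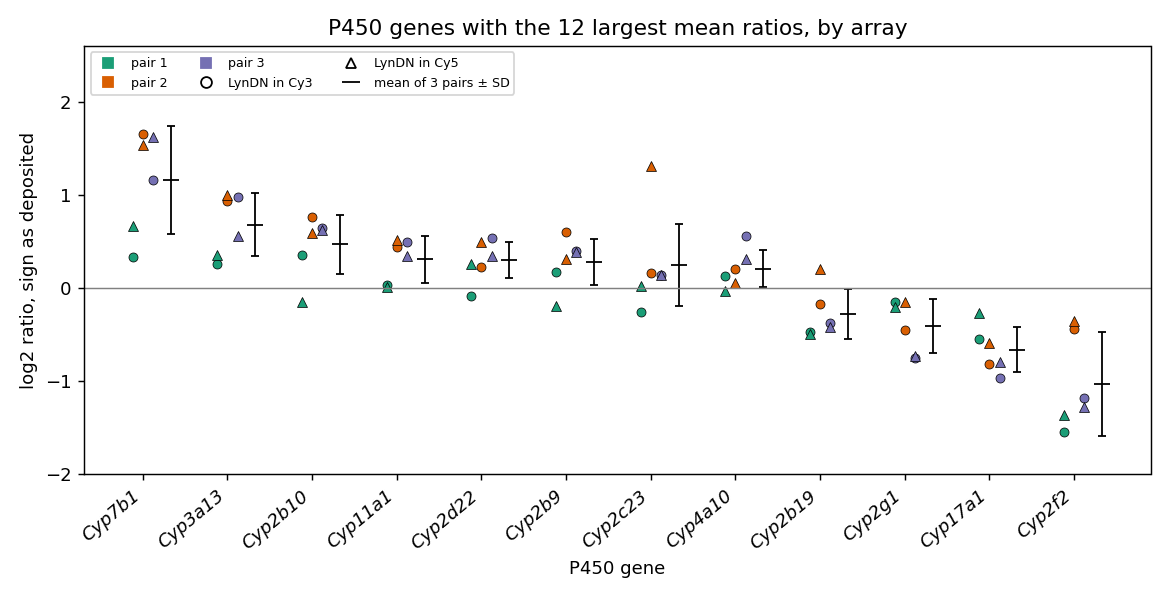
Log2 ratios, sign as deposited, on each of 6 arrays for the P450 genes with the 12 largest mean ratios; colour marks the mouse pair, circles arrays with LynDN in Cy3 and triangles those with LynDN in Cy5, and bars the mean of 3 pairs ± SD. Pair 1 lies nearer to 0 than both other pairs for Cyp7b1, Cyp3a13 and Cyp2b10, whereas for Cyp2f2 it is pair 2 that lies nearest to 0.

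Promoter sequence is shown for 3 genes near the ends of the range for which it was at hand: Cyp3a13 and Cyp2b10 from the positive side and Cyp2f2 from the negative. The 250 bases before the annotated start are given 5′ to 3′ on the strand of the gene, from RefSeq on GRCm38.p6. They are chr5:137921620-137921869 on the minus strand, chr7:25897408-25897657 on the plus strand and chr7:27119705-27119954 on the plus strand. Capitals mark matches on either strand to 1 of 4 motifs. The AP-1 motif was searched as TGACTCA and the nuclear receptor half-site as AGGTCA. The core bound by the aryl hydrocarbon receptor was searched as GCGTG. The TATA box was searched as TATAAA.
Cyp3a13: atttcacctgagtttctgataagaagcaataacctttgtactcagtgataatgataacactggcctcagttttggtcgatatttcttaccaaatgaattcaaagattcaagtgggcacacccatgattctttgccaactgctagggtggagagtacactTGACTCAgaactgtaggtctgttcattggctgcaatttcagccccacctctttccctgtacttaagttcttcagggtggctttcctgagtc
Cyp2b10: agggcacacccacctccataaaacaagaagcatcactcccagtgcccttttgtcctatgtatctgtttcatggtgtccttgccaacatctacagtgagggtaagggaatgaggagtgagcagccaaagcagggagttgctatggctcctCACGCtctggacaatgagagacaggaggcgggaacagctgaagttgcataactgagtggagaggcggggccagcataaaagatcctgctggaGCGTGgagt
Cyp2f2: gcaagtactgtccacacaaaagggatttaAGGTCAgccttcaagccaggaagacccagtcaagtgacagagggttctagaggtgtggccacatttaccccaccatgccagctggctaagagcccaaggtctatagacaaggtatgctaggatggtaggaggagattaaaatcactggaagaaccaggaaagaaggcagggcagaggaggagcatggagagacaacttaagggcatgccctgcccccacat
The Cyp3a13 window held 1 AP-1 match, beginning 91 bases before the start. The Cyp2b10 window held 2 receptor core matches, beginning 101 and 9 bases before the start. The Cyp2f2 window held 1 half-site, beginning 221 bases before the start. The tables matched 47 of the 65 genes, with 54 start windows. Of these windows 3.7% held the AP-1 motif, against 4.46% of all 32851 windows, 22.2% the half-site, against 14%, 20.4% the receptor core, against 28.2%, and 33.3% the TATA box, against 12.4%. A match describes the letters and is not a bound site.

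Among enzymes of bile acids and oxysterols, Cyp7b1 stood apart. It encodes the oxysterol hydroxylase of the alternative bile acid pathway. Its log2 ratios were 0.33, 1.65 and 1.16 in pairs 1, 2 and 3 with LynDN in Cy3 and 0.67, 1.54 and 1.62 with LynDN in Cy5. All 6 arrays were positive, and both arrays of pair 1 lay below all others. The mean was 1.16 ± 0.58 (SD, n = 3), a 2.24-fold difference, with a 95% interval from 0.60 to 1.72 on the log2 scale and an adjusted p of 0.273 in limma. With the pair as a block it passed (adjusted p = 0.0407), and without pair 1 the mean was 1.49 (adjusted p = 0.002). Without pair 2 the mean was 0.94 (adjusted p = 0.819 in limma) and without pair 3 it was 1.05 (adjusted p = 0.904). Each fit without 1 pair rests on 2 pairs. The remaining 5 genes of this group lay between -0.13 and 0.02. Cyp7a1, the rate-limiting enzyme of the classical bile acid pathway, had pair values of 0.06, -0.08 and -0.04. Cyp27a1, the mitochondrial sterol hydroxylase that makes a substrate of Cyp7b1, had 0.03, 0.02 and -0.05, with a 95% interval of the mean from -0.13 to 0.13. Cyp39a1, another oxysterol hydroxylase, had a mean of -0.13 ± 0.21 (SD, n = 3), with pair values of 0.07, -0.35 and -0.10.

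The steroid hormone enzymes were few but spread wide, with 4 genes from -0.66 to 0.31. Cyp17a1, which turns progestogens towards androgens in steroid-making glands, had -0.55, -0.81 and -0.97 in pairs 1, 2 and 3 with LynDN in Cy3 and -0.27, -0.59 and -0.79 with LynDN in Cy5. It was negative on all 6 arrays, least so in pair 1, with a mean of -0.66 ± 0.24 (SD, n = 3), and had the smallest p of the whole set (adjusted p = 0.237 in limma). It passed with the pair as a block (adjusted p = 0.0231) and without pair 1, with -0.79 (adjusted p = 0.0101). It did not pass without pair 2, with -0.64 (adjusted p = 0.819 in limma), or without pair 3, with -0.56 (adjusted p = 0.904). Cyp11a1, the enzyme that cuts the cholesterol side chain in the first step of steroid synthesis, had 0.03, 0.44 and 0.50 with LynDN in Cy3 and 0.01, 0.52 and 0.34 with LynDN in Cy5. Pair 1 was thus at 0 while both other pairs were positive, and the mean was 0.31 ± 0.25 (SD, n = 3). Its adjusted p in limma was 0.365, with 0.0288 without pair 1, 0.819 without pair 2 and 0.904 without pair 3. Cyp11b2, the aldosterone synthase, had pair values of -0.11, -0.11 and -0.29, and Cyp21a1 had 0.19, -0.07 and 0.09.

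Family 3 holds broad enzymes of foreign compounds and steroids. Cyp3a13 alone of its 5 genes left the range from -0.12 to 0.01. Its ratios were 0.26, 0.93 and 0.98 in pairs 1, 2 and 3 with LynDN in Cy3 and 0.36, 1.0 and 0.56 with LynDN in Cy5. It was positive on all 6 arrays, with pair 1 lowest, and had a mean of 0.68 ± 0.34 (SD, n = 3), a 1.61-fold difference. It did not pass on the pair values (adjusted p = 0.273 in limma) and missed the threshold narrowly with the block (adjusted p = 0.051). Without pair 1 it passed with 0.87 (adjusted p = 0.00875). It did not pass without pair 2, with 0.54 (adjusted p = 0.819), or without pair 3, with 0.64 (adjusted p = 0.904). For Cyp3a41a, a gene better known from female liver, the 2 probes gave means of -0.13 and -0.10. Cyp3a25 had pair values of -0.04, 0.09 and -0.03.

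**Figure D2:**
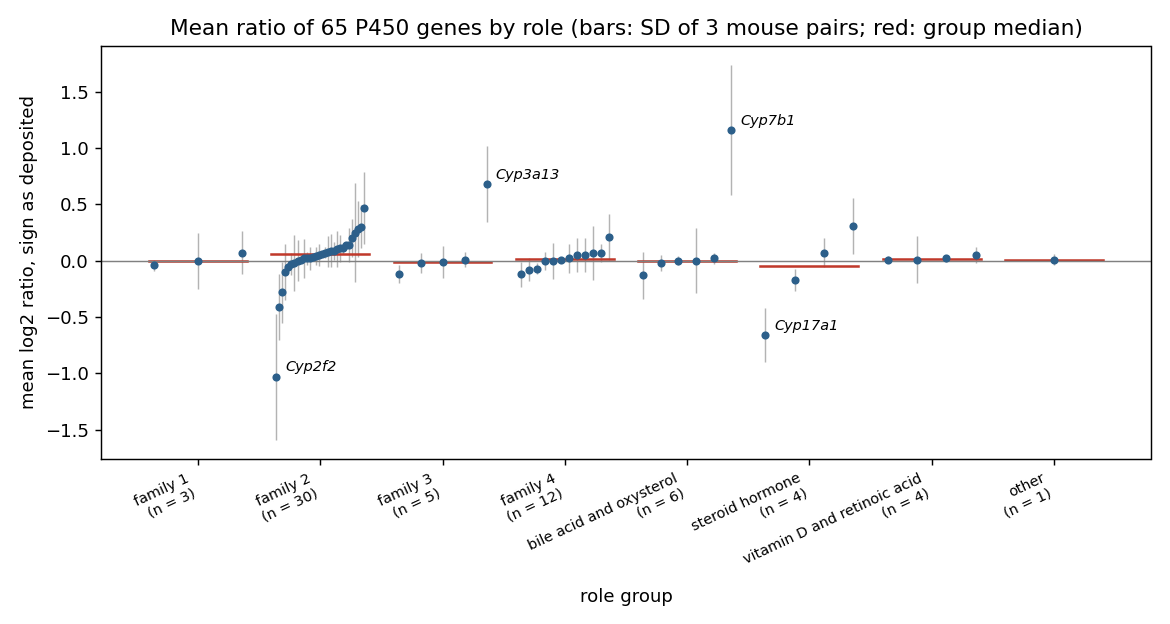
Mean log2 ratio, sign as deposited, of all 65 P450 genes in 8 role groups; points are means of 3 mouse pairs, grey bars their SD and red lines the group medians. The group medians run from -0.05 to 0.05, and Cyp7b1, Cyp3a13, Cyp17a1 and Cyp2f2 are the genes at or beyond 0.5 on either side.

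Family 2 is the largest, with 30 genes of foreign compound and arachidonic acid metabolism, of which 23 were positive and 7 negative (76.7% positive; median 0.05). On its negative side Cyp2f2, known from mouse lung for activating naphthalene, had -1.54, -0.44 and -1.18 in pairs 1, 2 and 3 with LynDN in Cy3 and -1.36, -0.35 and -1.28 with LynDN in Cy5. The dye swaps were close to each other in every pair, and the spread lay between pairs, with pair 2 nearest to 0. The mean was -1.03 ± 0.56 (SD, n = 3), a 2.04-fold difference, with a 95% interval from -1.57 to -0.48. Its adjusted p was 0.278 in limma on the pair values, 0.0486 with the block, and 0.115 without pair 1. Cyp2g1, known from olfactory mucosa, had -0.15, -0.45 and -0.75 with LynDN in Cy3 and -0.20, -0.15 and -0.73 with LynDN in Cy5, all negative, with a mean of -0.41 ± 0.29 (SD, n = 3; adjusted p = 0.326). Cyp2b19, the arachidonic acid epoxygenase of mouse keratinocytes, had -0.47, -0.17 and -0.37 with LynDN in Cy3 and -0.49, 0.20 and -0.42 with LynDN in Cy5, with a mean of -0.28 ± 0.27 (SD, n = 3; adjusted p = 0.399). The 1 positive array, of pair 2, is the array with another date in the labels, and without it the mean was -0.35.

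On the positive side of family 2, Cyp2b10, the enzyme induced by phenobarbital-type compounds in mouse liver, had 0.35, 0.76 and 0.65 in pairs 1, 2 and 3 with LynDN in Cy3 and -0.15, 0.59 and 0.62 with LynDN in Cy5. Its mean was 0.47 ± 0.32 (SD, n = 3; adjusted p = 0.308 in limma, and 0.0106 without pair 1). Its relative Cyp2b9, known from female mouse liver, had pair values of -0.01, 0.46 and 0.39 and a mean of 0.28 ± 0.25 (SD, n = 3; adjusted p = 0.393, and 0.0334 without pair 1). Cyp2d22 had 0.09, 0.37 and 0.44 and a mean of 0.30 ± 0.19 (SD, n = 3; adjusted p = 0.322, and 0.0374 without pair 1). In all 3 genes pair 1 lay lowest. Without pair 2 none of the 3 passed (adjusted p in limma from 0.819 to 0.831), nor without pair 3 (0.904 in each). Cyp2c23, an arachidonic acid epoxygenase best known from kidney, owed its mean of 0.25 ± 0.44 (SD, n = 3) to 1 array: the arrays of pair 2 gave 0.16 and 1.31, and the remaining 4 lay between -0.26 and 0.14. The array at 1.31 is the one with another date in the labels, and without it the mean was 0.06. Close relatives within Cyp2b, Cyp2c, Cyp2d, Cyp3a and Cyp4a can cross-hybridise, and probe sequences were not used here, so single members of these subfamilies are less certain than the others.

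Ratios varied among neighbouring genes. Along chromosome 7, in RefSeq's gene order on GRCm38.p6, a stretch of 9 family 2 genes on the array runs Cyp2s1, Cyp2b10, Cyp2b13, Cyp2b9, Cyp2b19, Cyp2g1, Cyp2a5, Cyp2a12 and Cyp2f2. Their mean ratios in that order were 0.20, 0.47, 0.02, 0.28, -0.28, -0.41, 0.09, 0.00 and -1.03. Further along the chromosome Cyp2r1 had 0.01 and Cyp2e1 -0.06. The stretch held the largest negative ratio of the set and the largest positive one of family 2. The 9 Cyp2c genes of chromosome 19, by contrast, lay between 0.01 and 0.25. Without Cyp2c23 the highest was Cyp2c39 at 0.14, with pair values of 0.13, 0.14 and 0.13. Its single arrays lay further apart, from 0.01 to 0.25. No test of the difference between these stretches was made.

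**Figure D3:**
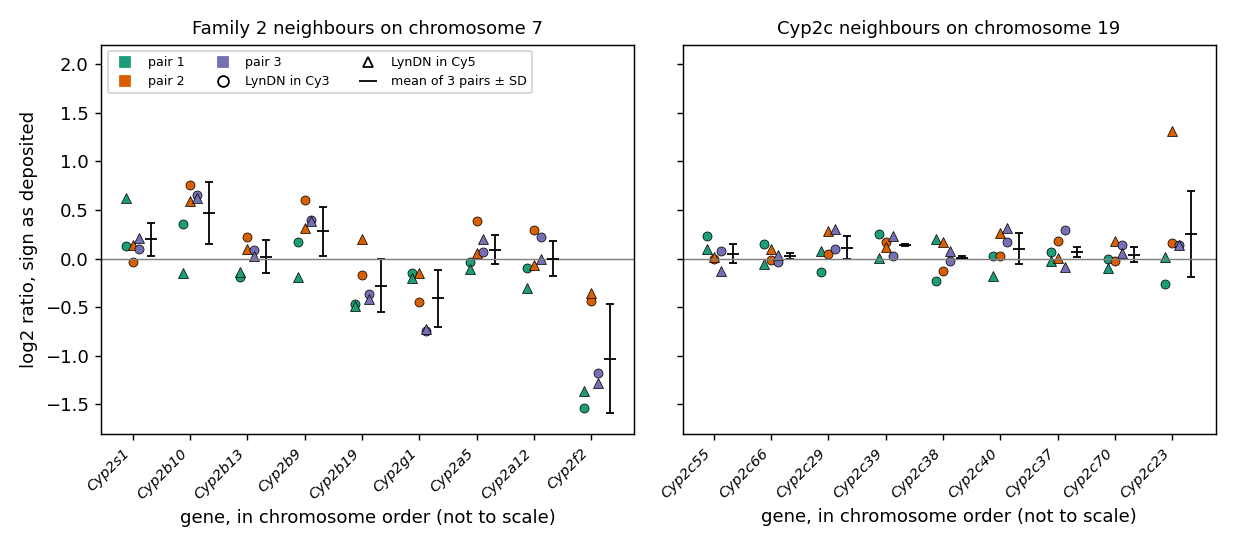
Log2 ratios, sign as deposited, by array for a stretch of 9 family 2 genes in their order on chromosome 7, without Cyp2r1 and Cyp2e1 further along (left), and for Cyp2c genes in their order on chromosome 19 (right); colours and symbols mark pair and dye orientation, and bars the mean of 3 pairs ± SD. Means run from -1.03 to 0.47 on the left and from 0.01 to 0.25 on the right, where 1 array of Cyp2c23 stands at 1.31.

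The fatty acid hydroxylases of family 4 gave 12 genes between -0.12 and 0.21, none with an unadjusted p under 0.05 (median 0.01). Cyp4a10, a target of the fatty acid receptor Ppara, had pair values of 0.05, 0.14 and 0.43 and a mean of 0.21 ± 0.20 (SD, n = 3; adjusted p = 0.438). Cyp4b1, which acts on fatty acids and on foreign compounds, had -0.20, -0.17 and 0.00 and a mean of -0.12 ± 0.11 (SD, n = 3; adjusted p = 0.490). Cyp4a12a and Cyp4f13 were among the genes nearest to 0, at 0.00 ± 0.08 and 0.01 ± 0.02 (SD, n = 3). These SDs are of pair values, in which the 2 dye orientations are averaged, and single arrays lay further apart. Cyp4a12a had -0.30, -0.40 and 0.01 with LynDN in Cy3 and 0.42, 0.22 and 0.08 with LynDN in Cy5. Cyp4f13 had -0.07, -0.22 and -0.15, and 0.11, 0.20 and 0.19.

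The targets of the aryl hydrocarbon receptor in family 1 showed no ratio beyond their spread. Cyp1a1, its best known target, had pair values of -0.09, 0.00 and -0.03, with a 95% interval of the mean from -0.17 to 0.09. Cyp1b1, which also oxidises oestrogens, had 0.15, -0.14 and 0.21, with an interval from -0.15 to 0.29. Cyp1a2 had 0.28, -0.21 and -0.06. Differences of 2-fold lie outside these intervals. The vitamin D and retinoic acid enzymes were alike in this: the activating Cyp27b1 had a mean of 0.02 with an interval from -0.10 to 0.15, the inactivating Cyp24a1 0.01 with -0.12 to 0.14, the liver-type activating Cyp2r1 0.01 with -0.22 to 0.25, and Cyp26a1, which removes retinoic acid, 0.05 with -0.09 to 0.19. Cyp20a1, whose substrate is not settled, had 0.01 ± 0.05 (SD, n = 3). Without spot intensities, a ratio near 0 from a probe that measured no transcript cannot be told apart from equal expression.

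Agreement between mouse pairs and dyes was uneven. Across the 65 genes, which are not independent replicates and share arrays, the pair values of pairs 2 and 3 correlated with Pearson's r = 0.8 (Spearman's rho 0.629), pairs 1 and 3 with 0.646 (0.143) and pairs 1 and 2 with 0.386 (0.0345). One sign on all 6 arrays was shown by 8 P450 genes, 12.3% against 8.03% of all rows. Cyp7b1, Cyp3a13, Cyp11a1 and Cyp2c39 were positive throughout (3.72% of all rows) and Cyp2f2, Cyp17a1, Cyp2g1 and Cyp11b2 negative (4.31%). Another 8 genes, again 12.3% against 11.4% of all rows, had every array of one dye orientation on one side of 0 and every array of the other orientation on the opposite side. In 4 of them the arrays with LynDN in Cy5 were the positive ones (5.39% of all rows) and in 4 the negative ones (5.99%). Cyp39a1 had -0.18, -0.74 and -0.33 in pairs 1, 2 and 3 with LynDN in Cy3 and 0.31, 0.04 and 0.13 with LynDN in Cy5. Cyp1a1 had 0.12, 0.24 and 0.24 with LynDN in Cy3 and -0.29, -0.23 and -0.30 with LynDN in Cy5. Whatever its source, such a difference between orientations is averaged out in the pair values.

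**Figure D4:**
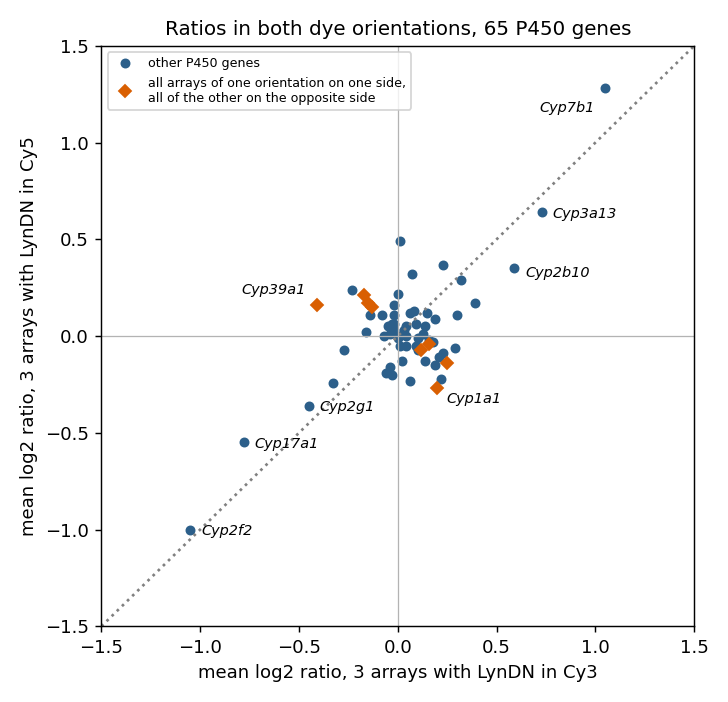
Mean log2 ratio, sign as deposited, over 3 arrays with LynDN in Cy3 (horizontal axis) and over 3 arrays with LynDN in Cy5 (vertical axis) for 65 P450 genes; the dotted line marks equal values. Cyp7b1, Cyp3a13, Cyp17a1 and Cyp2f2 lie near the line, and diamonds mark the 8 genes whose orientations lay wholly on opposite sides of 0, among them Cyp1a1 at 0.20 and -0.27.

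Pair 1 differed from the other pairs in more than its ratios. Over all rows its 2 dye-swapped arrays correlated with r = 0.0239 (rho -0.18), against 0.463 (0.127) in pair 2 and 0.462 (0.155) in pair 3. Over the P450 genes the r (rho) was 0.481 (0.0489), 0.571 (0.156) and 0.762 (0.423) in pairs 1, 2 and 3. Sex-linked genes set it apart as well. The Y-linked gene Eif2s3y had pair values of 3.5, 0.00 and 0.03, and Kdm5d, also Y-linked, had 1.24, -0.05 and 0.13. Xist, expressed from the inactive X chromosome, had -1.06, -0.09 and -0.14. These values read as mice of unlike sex in pair 1 and of like sex in the other pairs. Genotype and sex therefore cannot be told apart within pair 1, which enters every mean of the 3 pairs. P450 genes are known for differences between the sexes, chiefly in liver and kidney. Without pair 1, 7 P450 genes passed, against 4.88% of all rows: Cyp7b1, Cyp3a13, Cyp2b10, Cyp11a1, Cyp2d22 and Cyp2b9 positive, against 3.22%, and Cyp17a1 negative, against 1.67%. Without pair 2 or without pair 3, 0 passed, and the share of all rows that passed then was not counted. The keratinocyte gene Krt6b, with a mean of 4.82, did not pass in limma without pair 2 (adjusted p = 0.738) or without pair 3 (0.495). S100a9 did (0.00547 and 0.00359). Without the share of all rows, the count of 0 cannot be read as a trait of P450 genes. The part of sex and of dye-swap agreement in these ratios was not tested.

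Of 12 measured redox partners and haem enzymes, 0 passed in either fit. The largest difference by p was that of Cyb5b, a mitochondrial cytochrome b5, at -0.24 ± 0.12 (SD, n = 3, adjusted p = 0.311 in limma). Pgrmc2 and Cyb5r3 followed at -0.11 each, but their dye orientations lay wholly on opposite sides of 0. Pgrmc2 had means of -0.32 with LynDN in Cy3 and 0.09 with LynDN in Cy5, and Cyb5r3 had 0.18 and -0.41. Por was not analysed here. Of 21 transcriptional regulators 0 passed in either fit, while 6, or 28.6%, had an unadjusted p under 0.05, against 12.3% of all rows. Tiparp, a target and repressor of the aryl hydrocarbon receptor, had pair values of 0.11, 0.71 and 0.78 (adjusted p = 0.307, and 0.00827 without pair 1), while the receptor gene Ahr had -0.25, 0.02 and -0.17 and Nr1i3, the receptor through which phenobarbital induces Cyp2b10 in liver, had -0.02, 0.01 and -0.27. Rora, a nuclear receptor, had -0.31, -0.04 and -0.46, and Cebpb, a factor of liver and epidermis, 0.13, 0.18 and 0.43. Of 30 enzymes of conjugation and of related steps, 0 passed on the pair values, and 1 with the block, where 1.06% of all rows passed. In limma on the pair values 9, or 30%, had an unadjusted p under 0.05, against 12.3% of all rows. By mean ratio 11, or 36.7%, lay at least 0.15 from 0, against 19% of all rows. The gene that passed with the block was Gsta4, a glutathione transferase that detoxifies lipid aldehydes, with 1.41, 3.80 and 4.02 and a mean of 3.07 ± 1.45 (SD, n = 3; adjusted p = 0.255, and 0.0273 with the block). Aldh1a3, which makes retinoic acid, had 0.42 ± 0.26 and Gsta3 -0.19 ± 0.05 (SD, n = 3). Without pair 1, where 4.88% of all rows passed, 5 of these 30 did, all positive: Gsta4 at 3.91, Gsto1, another glutathione transferase, at 0.77, the sterol sulfotransferase Sult2b1 at 0.78, the epoxide hydrolase Ephx3 at 0.64 and the aldehyde dehydrogenase Aldh3a1 at 0.44. Of the regulators Tiparp alone passed without pair 1, and of the redox partners 0. Gsta4 and Tiparp did not pass in limma without pair 2 (adjusted p = 0.819 each) or without pair 3 (0.904 each). The medians of the 3 lists were -0.01, -0.02 and -0.01. Cyp51, the P450 enzyme of cholesterol synthesis outside the naming pattern, had 0.27, 0.54 and 0.58 (adjusted p = 0.251, and 0.0166 without pair 1).

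Cell type markers also had ratios away from 0 in the same mice. All 5 measured markers of stressed keratinocytes were positive (medians 3.44, 4.68 and 4.68 in pairs 1, 2 and 3), all 5 suprabasal markers negative (-0.46, -1.8 and -2.05) and all 5 basal markers positive (0.28, 0.51 and 0.34). All 6 macrophage markers had positive means, with medians of -0.06, 0.50 and 0.74 by pair. Sebaceous markers (5 positive and 4 negative of 9; 0.06, 0.09 and 0.00), hepatocyte markers (2 positive and 5 negative of 7; -0.05, 0.03 and -0.04) and fibroblast markers (2 positive and 4 negative of 6; -0.23, 0.01 and -0.07) lay nearer to 0. Adipocyte (0.12, -0.36 and -0.09), hair follicle (0.11, -0.81 and -0.45) and skeletal muscle markers (0.07, -0.20 and -0.68) varied between pairs. Most of their means were negative: 5 of 7 adipocyte, 5 of 6 hair follicle and 4 of 5 skeletal muscle markers. Among all 22879 rows, 12844 had negative means. An unadjusted p under 0.05 in limma was reached by 1 adipocyte, 2 hair follicle and 1 skeletal muscle marker, all negative. The part of cell makeup in the P450 ratios was not tested.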

How the data were processed

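Total RNA from skin was extracted with Qiagen and labelled with Ambion reagents, per the labels' protocols. The sources used here name no scanner, background correction or normalization. The deposited table holds 1 log2 ratio per probe and array (base 2 assumed, as the range from -6.34 to 6.16 is too wide for base 10), already near 0 at its centre as deposited, with column medians from -0.017 to 0.001; how it was centred and which genotype is the numerator are unknown. Without spot intensities, neither a filter on dim probes nor a check of saturation could be made.

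Probes were named by the platform annotation: 21082 of 25344 had 1 symbol, 30 several and 4232 no entry. All 65 P450 genes matched RefSeq (GRCm38.p6) by Entrez identifier, with 0 symbols changed. Probes were averaged per symbol, with unnamed probes kept as rows, giving 22879 rows. Per the labels, dye-swapped arrays carry the same RNAs, and they were averaged. A two-sided test set the mean over the 3 pairs against 0 (limma 3.58.1 under R 4.3.3; eBayes after lmFit, prior 2.96 degrees of freedom), with Benjamini-Hochberg adjustment over all rows. Mice are separate animals in the labels, so the SD over pairs is biological and technical together; the number of arrays limits precision.

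Alternatives were the block fit, quantile normalization, median centring, no or robust moderation, single probes, each dye orientation alone, each pair left out, and 1 array with another date in the labels left out. The named genes are the 12 largest means, genes called in either fit, the 2 smallest p per role group and 4 genes nearest to 0 with an SD under 0.1; the partner lists give the 3 smallest p. Other genes named (Cyp11b2, Cyp21a1, Cyp1a2, Cyp24a1, Cyp2r1, Cyp7a1, the neighbours on chromosomes 7 and 19, Ahr, Nr1i3, Gsto1, Sult2b1, Ephx3, Aldh3a1) and the printed promoters and motifs were chosen after values were seen. Members and lists were chosen with earlier results of these data known. Figures used matplotlib 3.10.9 (Python 3.11.15).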

Additional observations from a re-analysis of the deposited data

Results flagged for a closer look

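For 8 P450 genes all 3 arrays of one dye orientation lay on one side of 0 and all 3 of the other on the opposite side. The mean of the arrays with LynDN in Cy5 minus that of the arrays with LynDN in Cy3 was 0.57 for Cyp39a1, 0.38 for Cyp2d26, 0.31 for Cyp4f13 and 0.28 for Cyp2c38. It was -0.47 for Cyp1a1, -0.39 for Cyp26a1, -0.20 for Cyp2j6 and -0.19 for Cyp46a1. In a limma fit of these differences over the 3 pairs none of the 8 passed, with adjusted p from 0.0761 for Cyp39a1 to 0.311 for Cyp46a1. The share of such genes, 12.3%, was near the 11.4% of all rows.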

How the results depend on the processing

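The count of P450 genes called was 0 on the pair values and 0 under quantile normalization, median centring, no moderation, robust moderation, single probes, each dye orientation alone, and without the array of another date. With the replicate block over the 6 arrays the count was 3 (4.62%), where 1.06% of all rows passed. Without 1 pair it lay between 0 and 7, with 7 (10.8%) without pair 1, where 4.88% of all rows passed. Only 2 pairs remain in each fit without 1 pair. On the pair values 0.0175% of all rows passed, and the shares of all rows under the remaining settings are not given here. The median over P450 genes stayed between 0.011 and 0.042 under all alternatives. Among the named genes, signs turned for small means alone: with LynDN in Cy3 alone Cyp1a1 had 0.20 and Cyp1b1 -0.02, and with LynDN in Cy5 alone Cyp20a1 had -0.07, Cyp26a1 -0.14, Cyp27b1 -0.05 and Cyp39a1 0.16. Cyp1a1 had 0.04 without the array of another date, and Cyp20a1 lay between -0.01 (without pair 1) and 0.03 with 1 pair left out. The genes nearest to 0 (Cyp27a1, Cyp3a25, Cyp4a12a and Cyp4f13) were compared by size alone. With 3 pairs, even P450 means well above their SD, such as that of Cyp17a1, did not pass on the pair values, and dim or saturated spots could not be seen.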
